A study of Homo sapiens with 18 samples.

Results

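The lineage plasticity regulators described here are 8 genes known as drivers or brakes of neuroendocrine and stem-like change in prostate cancer: SOX2, SOX4, SOX9, EZH2, RB1, REST, ONECUT2 and MYCN. They were chosen by name, with earlier results of these data known, and all 8 had a row among the 26900 gene symbols of the table. Bulk RNA sequencing had been carried out on 16D cells, a castration-resistant prostate cancer cell line derived from LNCaP. All cells, the controls included, carried Cas9 and a guide RNA brought in by lentivirus. The guide was sgAAVS, a control guide to the AAVS safe-harbour locus, or sgOGDHL_1 or sgOGDHL_2, which target OGDHL, the OGDH-like enzyme gene. Cells with each guide spent 6 weeks in vehicle (DMSO) or in enzalutamide (Enza) at 10 µM, an inhibitor of the androgen receptor used to treat prostate cancer. This gave 6 groups of 3 libraries, 18 in all. The labels do not say whether a guide's cells were a pool or a clone, or whether the 3 replicates are independent cultures, and the p-values below cover only the variation among these libraries, which may be technical.

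The 8 genes act at different levels of cell identity. SOX proteins are DNA-binding factors with an HMG box: SOX2 maintains stem cells and neural progenitors, SOX4 acts in progenitors and in the epithelial-mesenchymal transition, and SOX9 specifies progenitors in many epithelia, the developing prostate among them. REST silences neuronal genes in cells that are not neurons, ONECUT2 is a homeodomain factor of liver and neural development that has been tied to lineage change in prostate cancer, and EZH2 is the catalytic subunit of Polycomb repressive complex 2 (PRC2), which methylates histone H3. RB1 holds E2F factors inactive before the cell enters S phase, and MYCN is the MYC family member most often linked to neuroendocrine prostate cancer.

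Levels are in TPM, a transcript abundance corrected for gene length and set to the same total in every library, so the depth behind a value is unknown. In bulk RNA, fewer cells of a type and less RNA per cell cannot be told apart. Changes are log2 differences of TPM + 1, which understates the change of genes near or below 1 TPM, and a gene was called at a limma adjusted p under 0.05 over the 13416 genes with at least 1 TPM in at least 3 libraries. The 3 libraries labelled sgOGDHL_2 in vehicle stood apart from the rest: they correlated with the other 15 at 0.884 to 0.922, against 0.95 to 0.998 among those 15, and 764 to 851 named genes were listed at 0 in them, against 1728 to 2580 elsewhere. OGDHL itself was at 2.15 ± 0.0357 TPM (SD, n = 3) in sgAAVS vehicle, 0.849 ± 0.445 in sgOGDHL_1 vehicle and 3.03 ± 0.364 in the libraries labelled sgOGDHL_2 in vehicle, so the last were not lower than the control. In enzalutamide it was 3.37 ± 0.363 with sgAAVS, 1.03 ± 0.104 with sgOGDHL_1 and 1.74 ± 0.0908 with sgOGDHL_2. Mitochondrially encoded genes held 73.8%, 69.9% and 57.2% of the TPM in sgOGDHL_1 vehicle and 50.1% to 62.3% in the other groups, and the median gene was lower in sgOGDHL_1 vehicle than in sgAAVS vehicle by a log2 change of −0.322. All 11 prostate luminal markers reached 1 TPM. Of 7 basal markers 2 did, ITGB4 at up to 1.3 TPM and KRT15 at up to 1.01 TPM, and the basal sum was 2.79 to 3.12 TPM in the libraries labelled sgOGDHL_2 in vehicle against 0.378 to 1.48 TPM elsewhere, with the basal factor TP63 at most 0.00238 TPM. Of 5 leukocyte markers 2 did, CD68 at up to 11 TPM and LYZ at up to 1.29 TPM, both highest in those libraries, with PTPRC at most 0.0012 TPM. Of 6 fibroblast markers 2 did, COL1A1 at up to 8.63 TPM among them, and their sum was 3.79 to 8.97 TPM over all groups. The part of these markers in the results was not tested.

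After 6 weeks in enzalutamide, sgAAVS cells had much more SOX9 and less SOX4 and ONECUT2, whereas SOX2 and MYCN stayed near 0 TPM. Of the 8 genes, 6 passed the filter on low values, and RB1 passed it only through the 3 libraries labelled sgOGDHL_2 in vehicle. RB1 values in comparisons that use those libraries are therefore a description, and counts of members called there include RB1 unless it is set aside. In sgAAVS cells 4 of these 6 changed with enzalutamide, SOX9 and RB1 upward and SOX4 and ONECUT2 downward, where 20.8% of all tested genes were called, 9.28% higher and 11.6% lower. In sgOGDHL_1 cells 3 changed with the drug, SOX9 upward and SOX4 and ONECUT2 downward, where 29.9% of all tested genes were called, 26.3% higher and 3.54% lower. In sgOGDHL_2 cells, with RB1 set aside, SOX9 and EZH2 were called higher and SOX4, ONECUT2 and REST lower. But there 59.5% of all tested genes were called, 11.2% higher and 48.3% lower, and that comparison rests on the vehicle libraries that stood apart. SOX9, SOX4 and ONECUT2 had the same direction in all 3 comparisons, which share no libraries. The median log2 change of all tested genes was −0.049 with enzalutamide in sgAAVS cells, 0.229 in sgOGDHL_1 cells and −0.299 in sgOGDHL_2 cells, and 0.185 in the libraries labelled sgOGDHL_2 in vehicle against sgAAVS, so changes in the last 3 are also given relative to the median gene. Median-of-ratios scaling, which sets each library by the median ratio of its genes, called 6, 3 and 5 members with enzalutamide in sgAAVS, sgOGDHL_1 and sgOGDHL_2 cells, among 52.7%, 48.5% and 74.1% of all tested genes.

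**Figure D1:**
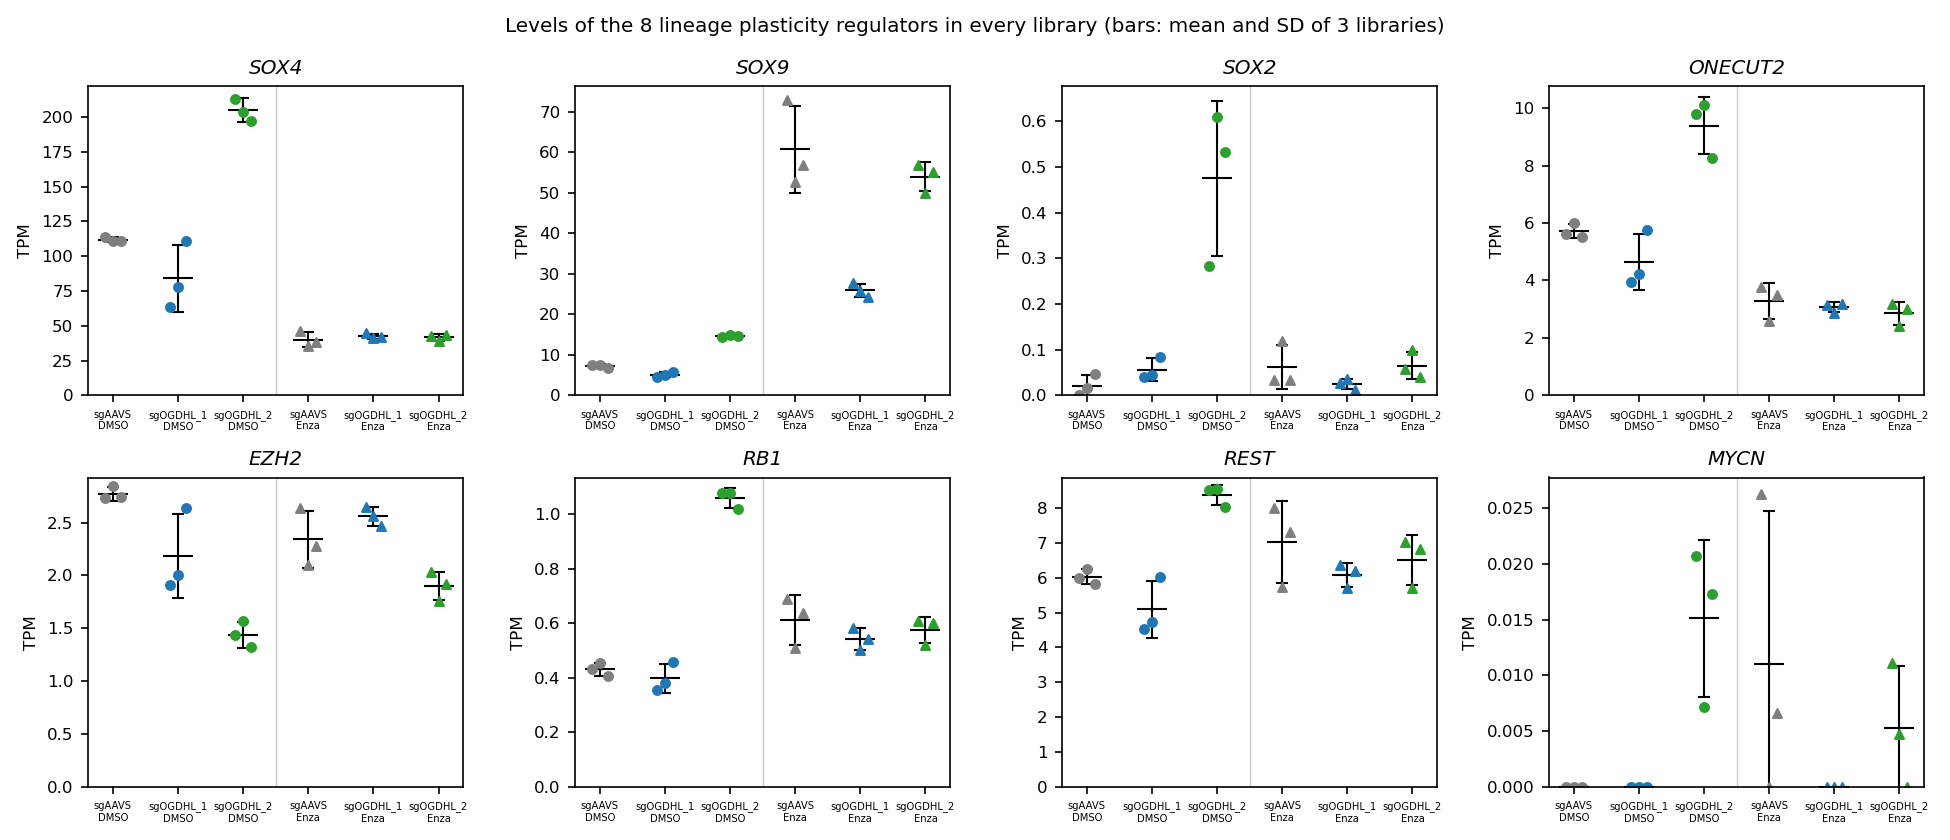
TPM (vertical axis, linear and different for each gene) of the 8 genes in the 18 libraries by group. Circles are vehicle and triangles enzalutamide, with horizontal bars for the mean and error bars for the SD of 3 libraries. SOX9 is higher and SOX4 and ONECUT2 are lower in every enzalutamide group than in vehicle with the same guide, and the libraries labelled sgOGDHL_2 in vehicle are the highest for SOX4, SOX2, ONECUT2, RB1 and REST and the lowest in mean for EZH2.

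SOX9 (chr17:72121020-72126420, plus strand, GENCODE 29 on GRCh38) rose with enzalutamide in cells with each guide. It was at 7.5, 7.44 and 6.8 TPM in the sgAAVS vehicle libraries and at 73, 52.6 and 56.9 TPM in sgAAVS enzalutamide. No library of the one group came near the other, and the ratio of the means was 8.39 (log2 change 2.89, SE 0.12, limma adjusted p = 4.4e-12). With sgOGDHL_1 the levels were 4.49, 4.96 and 5.72 TPM in vehicle, against 27.7, 25.7 and 24.3 TPM in enzalutamide, a ratio of 5.12 (log2 change 2.15, limma adjusted p = 6.7e-10, or 1.93 relative to the median gene). With sgOGDHL_2 they were 14.5, 14.8 and 14.6 TPM in vehicle, against 56.9, 50 and 55.1 TPM in enzalutamide, a ratio of 3.68 (log2 change 1.81, limma adjusted p = 5.9e-10, or 2.11 relative to the median gene). The vehicle levels in TPM thus differed between the 3 guides, but that of sgOGDHL_1 was not called against sgAAVS after median-of-ratios scaling. Every enzalutamide library lay above every vehicle library.

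SOX9 was also the member that differed from sgAAVS in enzalutamide. Its mean was 60.8 ± 10.8 TPM with sgAAVS, 54 ± 3.55 with sgOGDHL_2 and 25.9 ± 1.68 with sgOGDHL_1 (SD, n = 3 each). The sgOGDHL_1 libraries were 2.35-fold lower than the control and did not overlap it (log2 change −1.19, SE 0.12, limma adjusted p = 3.2e-06). SOX9 was the 1 member of 6 called in that comparison, where 7.07% of all tested genes were called, 2.15% higher and 4.91% lower. The sgOGDHL_2 libraries overlapped the control libraries (log2 change −0.16, limma adjusted p = 0.76). Between the guides to OGDHL, a comparison added after the data had been seen, SOX9 was 2.09-fold higher with sgOGDHL_2 (log2 change 1.03, limma adjusted p = 1.4e-05), and 12.9% of all tested genes were called there, 6.3% higher and 6.65% lower. OGDHL was also lower with sgOGDHL_1, at 1.03 TPM, than with sgOGDHL_2, at 1.74 TPM; its part in the SOX9 difference was not tested.

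The rise of SOX9 itself was smaller with each guide to OGDHL than with sgAAVS in a test of the interaction. For sgOGDHL_1 the difference between the rises was −0.74 (SE 0.17, limma adjusted p = 0.017, −1.01 relative to the median gene), and SOX9 was the 1 member called among 6, where 6.95% of all tested genes were called, 5.67% higher and 1.27% lower. This call missed the threshold in a fit of the 12 libraries concerned (adjusted p = 0.081), without sgAAVS vehicle replicate 3 (−0.70, adjusted p = 0.055) and without sgOGDHL_1 enzalutamide replicate 3 (−0.70, adjusted p = 0.054), all by limma. For sgOGDHL_2 it was −1.08 (limma adjusted p = 7.2e-05). With RB1 set aside, EZH2 was called higher there and SOX9, SOX4, ONECUT2 and REST lower. Of all tested genes 43.6% were called there, 8.71% higher and 34.9% lower. Median-of-ratios scaling called 3 and 5 members in the interactions of sgOGDHL_1 and sgOGDHL_2, the 5 with RB1 counted, and 34% and 66.4% of all tested genes. The value of −1.08 includes the vehicle libraries that stood apart, in which SOX9 was already 2.02-fold above the sgAAVS vehicle libraries.

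SOX4 (chr6:21592768-21598619, plus strand) fell to nearly the same level in enzalutamide with every guide. It was at 114, 111 and 111 TPM in sgAAVS vehicle and at 46.2, 35.5 and 38.5 TPM in sgAAVS enzalutamide, 2.80-fold lower (log2 change −1.47, SE 0.16, limma adjusted p = 1.1e-06). With sgOGDHL_1 the vehicle libraries spread over 63.6, 77.6 and 111 TPM, and the enzalutamide libraries were at 44.6, 41.3 and 41.8 TPM (log2 change −0.93, limma adjusted p = 4.3e-04, −1.16 relative to the median gene). In a fit of those 6 libraries alone the SOX4 change in sgOGDHL_1 cells missed the threshold (limma adjusted p = 0.07). With sgOGDHL_2 SOX4 went from 213, 204 and 197 TPM to 42.3, 38.8 and 43.7 TPM, 4.92-fold lower (log2 change −2.27, limma adjusted p = 7.1e-10, −1.97 relative to the median gene). Thus the vehicle means ran from 84 to 205 TPM, while the enzalutamide means lay between 40.1 and 42.6 TPM and their libraries overlapped.

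Against sgAAVS in enzalutamide, SOX4 was not called with sgOGDHL_1 (log2 change 0.09, limma adjusted p = 0.83) or with sgOGDHL_2 (0.06, limma adjusted p = 0.94). After median-of-ratios scaling both were called, at 0.21 (limma adjusted p = 0.001) and 0.15 (limma adjusted p = 0.022). That scaling called far more of all tested genes, 36.1% and 17.3% in these comparisons. In vehicle SOX4 was 1.83-fold higher in the libraries labelled sgOGDHL_2 than in sgAAVS (log2 change 0.86, limma adjusted p = 1.3e-04, 0.68 relative to the median gene). It was 0.45 lower with sgOGDHL_1 (log2 change −0.45, limma adjusted p = 0.026), but that was −0.13 relative to the median gene and 0.02 after median-of-ratios scaling (limma adjusted p = 0.74).

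SOX2 (chr3:181711924-181714436, plus strand), a factor whose gain marks stem-like and neuroendocrine prostate tumours, stayed under 1 TPM in every library and was not tested. It was highest in the libraries labelled sgOGDHL_2 in vehicle, at 0.284, 0.609 and 0.533 TPM. The other 15 libraries lay between 0 and 0.118 TPM, and the sgAAVS groups overlapped, with means of 0.0204 ± 0.0234 TPM in vehicle and 0.0619 ± 0.0483 TPM in enzalutamide (SD, n = 3 each).

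Of 19 SOX genes listed, 17 had a row and 7 were tested. With enzalutamide in sgAAVS cells 2 rose and 3 fell, and their median change was −0.27 against −0.05 for all tested genes. Beside SOX9, SOX8 rose from 3.93 ± 0.081 to 6.2 ± 0.7 TPM (log2 change 0.54, limma adjusted p = 0.015). Beside SOX4, SOX15 fell from 1.7 ± 0.25 to 0.87 ± 0.22 TPM (log2 change −0.54, limma adjusted p = 0.019) and SOX13 from 1.18 ± 0.036 to 0.815 ± 0.1 TPM (log2 change −0.27, limma adjusted p = 0.044). SOX12, a close relative of SOX4 in the same subgroup, was the other SOX gene at a high level, with 154 ± 1.5 TPM in sgAAVS vehicle and 122 ± 19 TPM in sgAAVS enzalutamide, and did not pass the test (log2 change −0.35, limma adjusted p = 0.21). After median-of-ratios scaling SOX12 was called (−0.33, limma adjusted p = 1.0e-04), which made 2 SOX genes higher and 4 lower. SOX9 was thus below SOX4 and SOX12 in sgAAVS vehicle and above SOX4 in sgAAVS enzalutamide.

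ONECUT2 (chr18:57435685-57491297, plus strand) fell with enzalutamide in cells with each guide. It was at 5.63, 5.99 and 5.52 TPM in sgAAVS vehicle and at 3.77, 2.59 and 3.49 TPM in sgAAVS enzalutamide, 1.74-fold lower and without overlap (log2 change −0.66, SE 0.13, limma adjusted p = 0.0012). With sgOGDHL_1 it went from 3.96, 4.22 and 5.77 TPM to 3.15, 2.85 and 3.19 TPM (log2 change −0.46, limma adjusted p = 0.017, −0.69 relative to the median gene), a call that missed the threshold in a fit of those 6 libraries alone (limma adjusted p = 0.2) and without enzalutamide replicate 1 (limma adjusted p = 0.051) or replicate 2 (limma adjusted p = 0.067). With sgOGDHL_2 it went from 9.79, 10.1 and 8.27 TPM to 3.17, 2.4 and 3.01 TPM, 3.29-fold lower (log2 change −1.43, limma adjusted p = 4.3e-08, −1.13 relative to the median gene). As for SOX4, the libraries labelled sgOGDHL_2 in vehicle lay above the other vehicle groups, while sgOGDHL_1 overlapped sgAAVS. The ONECUT2 vehicle means ran from 4.65 to 9.39 TPM, and the enzalutamide groups overlapped at means from 2.86 to 3.28 TPM.

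Neither guide to OGDHL changed ONECUT2 in enzalutamide by the test, with log2 changes of −0.07 for sgOGDHL_1 (limma adjusted p = 0.87, 0.02 after median-of-ratios scaling) and −0.15 for sgOGDHL_2 (limma adjusted p = 0.81). ONECUT2 was the only tested member of its family: ONECUT1 reached a mean of 0.126 TPM in sgAAVS enzalutamide and ONECUT3 was at or below 0.00527 TPM in every group mean. The 250 bases before the RefSeq start of ONECUT2 (chr18:57435124-57435373, plus strand, GRCh38.p14) are shown because, of the SOX4, SOX9 and ONECUT2 genes that changed with the androgen receptor inhibitor under each guide, it is the one for which a window clear of annotated exons was at hand. Capitals mark GC boxes, the letters GGGCGG on either strand.
ONECUT2 promoter: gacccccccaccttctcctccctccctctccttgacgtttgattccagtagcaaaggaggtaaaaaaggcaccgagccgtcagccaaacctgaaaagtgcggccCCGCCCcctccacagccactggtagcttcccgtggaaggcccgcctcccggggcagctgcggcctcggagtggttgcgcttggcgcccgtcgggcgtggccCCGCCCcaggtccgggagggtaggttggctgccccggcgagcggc
The window held 2 GC boxes, a motif found in 42.6% of 35116 RefSeq promoter windows of the same length. It held no match on either strand to the androgen receptor half-site AGAACA (in 12.4% of the windows), the SOX motif AACAAT (8.98%), CCAAT (32%), the E-box CACGTG (6.34%) or the E2F motif TTTGGCGC (0.55%). These are counts of letters in a short window and do not show binding.

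REST (chr4:56907876-56966678, plus strand), the silencer of neuronal genes, was not called with enzalutamide in sgAAVS or sgOGDHL_1 cells. It was at 5.99, 6.25 and 5.83 TPM in sgAAVS vehicle and at 8.01, 5.73 and 7.32 TPM in sgAAVS enzalutamide, groups that overlapped (log2 change 0.18, SE 0.12, limma adjusted p = 0.33). After median-of-ratios scaling that change was 0.20 and was called (limma adjusted p = 0.036), with 52.7% of all tested genes. With sgOGDHL_1 the levels were 4.52, 4.72 and 6.02 TPM in vehicle, against 6.35, 5.69 and 6.2 TPM in enzalutamide, which overlapped (log2 change 0.23, limma adjusted p = 0.15, −0.06 after median-of-ratios scaling). With sgOGDHL_2 they were 8.51, 8.55 and 8.04 TPM in vehicle, against 7.02, 5.7 and 6.81 TPM in enzalutamide (log2 change −0.32, limma adjusted p = 0.029), but that was −0.02 relative to the median gene and 0.08 after median-of-ratios scaling (limma adjusted p = 0.36). In enzalutamide neither guide differed from sgAAVS by the test, with log2 changes of −0.17 for sgOGDHL_1 (limma adjusted p = 0.53) and −0.09 for sgOGDHL_2 (limma adjusted p = 0.88).

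Among 21 neuronal genes known to be silenced by REST, 7 were tested, and with enzalutamide in sgAAVS cells 4 rose and 1 fell, a median change of 0.30 against −0.05 for all tested genes. SYT4, a synaptotagmin, rose from 4.89 ± 0.38 to 22.7 ± 3.8 TPM (log2 change 2.00, limma adjusted p = 6.0e-10). BEX1 rose from 21.5 ± 1.4 to 40.5 ± 8 TPM (log2 change 0.87, limma adjusted p = 2.5e-04) and NEFL, the light neurofilament, from 0.688 ± 0.06 to 1.35 ± 0.21 TPM (log2 change 0.48, limma adjusted p = 3.7e-04). VGF, a secreted neuropeptide precursor, fell from 4.66 ± 0.53 to 1.89 ± 0.64 TPM (log2 change −0.99, limma adjusted p = 2.7e-04). Median-of-ratios scaling called 4 of the 7 higher and 3 lower, adding CELSR3 (−0.33, limma adjusted p = 0.0045) and GRIN1 (−0.38, limma adjusted p = 0.0021) to VGF. These genes moved in both directions while REST itself was not called on TPM as deposited.

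In enzalutamide sgOGDHL_1 cells had 3 of the 7 genes lower and 1 higher than sgAAVS cells. SYT4 was at 3.5 ± 0.28 TPM there (log2 change −2.39, limma adjusted p = 3.0e-10), BEX1 at 23.8 ± 0.25 TPM (−0.72, limma adjusted p = 0.0037) and NEFL at 3.85 ± 0.11 TPM (1.05, limma adjusted p = 1.2e-07). With sgOGDHL_2 SYT4 alone of the 7 was called, at 11.3 ± 1.3 TPM (log2 change −0.94, limma adjusted p = 2.0e-04); median-of-ratios scaling called 2 others higher, NEFL among them (0.31, limma adjusted p = 3.0e-04). Of 12 tested genes in a list of REST, its corepressors and the splicing factors that act on it, none of the last being above the filter, 2 rose with enzalutamide in sgAAVS cells, RCOR2 from 2.00 ± 0.12 to 3.31 ± 0.52 TPM (log2 change 0.52, limma adjusted p = 0.0064) and RCOR3 from 3.03 ± 0.12 to 4.19 ± 0.66 TPM (0.36, limma adjusted p = 0.014). Median-of-ratios scaling called 6 higher, REST itself among them, and 3 lower. RCOR2 was lower with sgOGDHL_1 than with sgAAVS in enzalutamide, at 1.88 ± 0.2 TPM (log2 change −0.58, limma adjusted p = 0.007). SRRM4, the neural splicing factor that makes the inactive form of REST, was at or below a mean of 0.00368 TPM in every group.

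EZH2 (chr7:148807383-148884321, minus strand) has a processed pseudogene, EZH2P1 (chr21:35599732-35600022, minus strand), whose row in the table was several times higher than that of EZH2. The pseudogene spans 291 bases and matches transcript bases 2088 to 2378 of EZH2, the last part of its coding sequence, at 96.2% identity. Both are shown, from GENCODE 29 transcripts on GRCh38, because some reads of 50 bases from this stretch match both genes. Capitals mark the 11 bases that differ.
EZH2: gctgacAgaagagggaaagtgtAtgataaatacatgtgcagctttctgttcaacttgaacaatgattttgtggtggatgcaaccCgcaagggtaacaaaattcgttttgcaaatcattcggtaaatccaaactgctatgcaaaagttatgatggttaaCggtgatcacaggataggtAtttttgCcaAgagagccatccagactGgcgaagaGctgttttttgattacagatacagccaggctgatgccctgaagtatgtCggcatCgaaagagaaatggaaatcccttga
EZH2P1: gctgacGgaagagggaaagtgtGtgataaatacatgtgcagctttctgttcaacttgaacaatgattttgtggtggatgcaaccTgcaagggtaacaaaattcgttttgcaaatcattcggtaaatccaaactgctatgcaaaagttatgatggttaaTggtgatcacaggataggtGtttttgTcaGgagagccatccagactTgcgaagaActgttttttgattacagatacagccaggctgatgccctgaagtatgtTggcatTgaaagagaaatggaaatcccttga
The longest identical run was 73 bases, and 36 of the 242 windows of 50 bases were identical in both. How the authors counted such reads is not given in the sources used here, so the levels of both genes are uncertain.

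With that limit, EZH2 was at 2.73, 2.85 and 2.74 TPM in sgAAVS vehicle and at 2.64, 2.1 and 2.28 TPM in sgAAVS enzalutamide. The groups did not overlap, but the change was not called (log2 change −0.18, SE 0.09, limma adjusted p = 0.18); after median-of-ratios scaling it was −0.16 and called (limma adjusted p = 0.01). With sgOGDHL_1 EZH2 was at 1.91, 2.00 and 2.64 TPM in vehicle, against 2.65, 2.56 and 2.47 TPM in enzalutamide, which overlapped (log2 change 0.17, limma adjusted p = 0.15, −0.06 after median-of-ratios scaling). With sgOGDHL_2 it was at 1.44, 1.57 and 1.32 TPM in vehicle, against 2.03, 1.76 and 1.92 TPM in enzalutamide, so EZH2 rose there (log2 change 0.25, limma adjusted p = 0.024, 0.55 relative to the median gene). That last call missed the threshold without vehicle replicate 1 (0.25, limma adjusted p = 0.059) or 3 (0.21, 0.082) and without enzalutamide replicate 1 (0.22, 0.087) or 3 (0.24, 0.062). EZH2 was the 1 member lower in the libraries labelled sgOGDHL_2 in vehicle than in sgAAVS vehicle, by 1.92-fold (log2 change −0.63, limma adjusted p = 1.1e-05, −0.81 relative to the median gene).

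In enzalutamide EZH2 was lower with sgOGDHL_2 than with sgAAVS without overlap, but it was not called (log2 change −0.20, limma adjusted p = 0.47). It was the 1 member with an unadjusted limma p under 0.05 in that comparison, in which limma called 0 of the 6 members and 1.25% of all tested genes (0.678% higher and 0.574% lower); median-of-ratios scaling called 1 member, SOX4. With sgOGDHL_1 EZH2 overlapped the control (log2 change 0.10, limma adjusted p = 0.66) and was called after median-of-ratios scaling (0.18, limma adjusted p = 0.0083). Set against each other in enzalutamide, EZH2 was 1.35-fold lower with sgOGDHL_2 than with sgOGDHL_1 (log2 change −0.30, limma adjusted p = 0.039). Thus SOX9 and EZH2 were the 2 of 6 members called between these guides, in opposite directions, where 12.9% of all tested genes were called. Median-of-ratios scaling called 6306 of the 13416 genes there, and its calls of members are not given for this comparison.

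EZH2P1 followed the same order of groups in enzalutamide. It was at 15.5, 12 and 10.6 TPM with sgAAVS, 15.9, 13.3 and 15.7 TPM with sgOGDHL_1 and 9.93, 8.32 and 7.92 TPM with sgOGDHL_2. Between sgOGDHL_2 and sgOGDHL_1 EZH2P1 differed by −0.72 on the log2 scale (limma adjusted p = 0.0027), without overlap. In vehicle it was lower in the libraries labelled sgOGDHL_2, at 7.96, 7 and 6.62 TPM, than in sgAAVS, at 12.1, 14.6 and 15.8 TPM (log2 change −0.88, limma adjusted p = 5.3e-05). In sgOGDHL_1 vehicle EZH2P1 lay between them at 9.18, 10.9 and 12.2 TPM, overlapping sgAAVS.

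**Figure D2:**
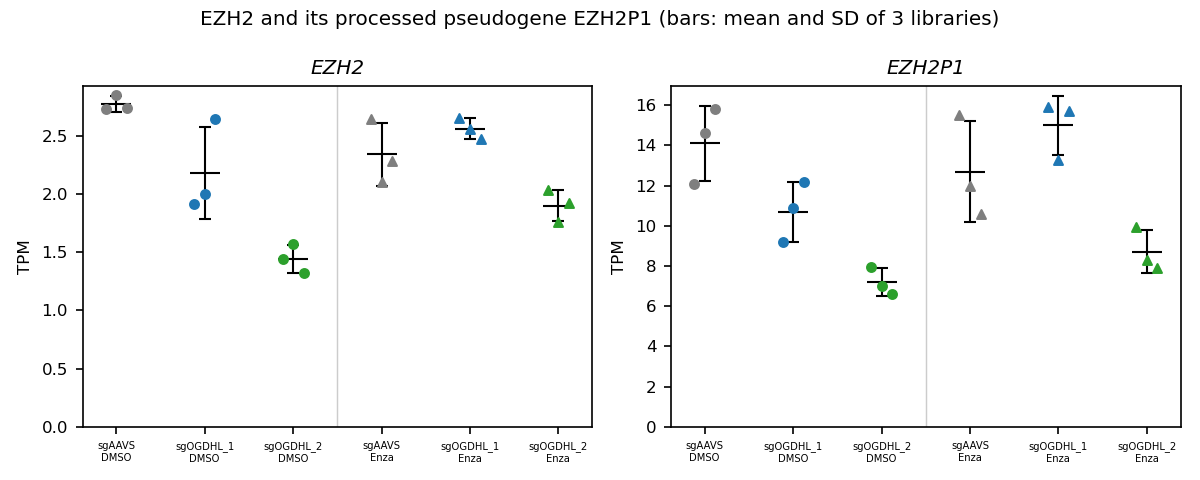
TPM (vertical axis, linear) of EZH2 and of its processed pseudogene EZH2P1 in each library by group, with circles for vehicle, triangles for enzalutamide, and bars for the mean and SD of 3 libraries. In both panels the sgOGDHL_2 groups are the lowest within each treatment, with EZH2 means of 1.44 TPM in vehicle and 1.9 TPM in enzalutamide.

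Of 12 PRC2 subunits 8 were tested, and with enzalutamide in sgAAVS cells 1 was called, RBBP7, a histone-binding subunit, which fell from 23.8 ± 0.38 to 17.8 ± 2.5 TPM (log2 change −0.41, limma adjusted p = 0.039). After median-of-ratios scaling 1 was higher and 2 were lower. SUZ12 was at 5.53 ± 0.19 and 5.46 ± 0.89 TPM (limma adjusted p = 0.91) and EED, the third core subunit, at 2.68 ± 0.057 and 2.86 ± 0.36 TPM (limma adjusted p = 0.75). EZH1, the other catalytic subunit, was at 2.32 ± 0.13 and 2.75 ± 0.27 TPM (limma adjusted p = 0.36). No PRC2 subunit was called by limma with either guide against sgAAVS in enzalutamide, where none had an unadjusted p under 0.05 with sgOGDHL_1 and 1, EZH2, had with sgOGDHL_2; median-of-ratios scaling called 3 and 2.

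RB1 (chr13:48303726-48599436, plus strand) was low in all groups. It was at 0.432, 0.456 and 0.406 TPM in sgAAVS vehicle and at 0.69, 0.511 and 0.639 TPM in sgAAVS enzalutamide, 1.42-fold higher and without overlap (log2 change 0.17, SE 0.054, limma adjusted p = 0.03). Leaving out any of the 3 sgAAVS vehicle libraries, or sgAAVS enzalutamide replicate 1 or 3, ended the RB1 call, with limma adjusted p of 0.061 to 0.11 and log2 changes of 0.14 to 0.18. With sgOGDHL_1 RB1 was at 0.354, 0.38 and 0.458 TPM in vehicle, against 0.584, 0.503 and 0.541 TPM in enzalutamide, which did not overlap, and it was not called (log2 change 0.14, limma adjusted p = 0.053, −0.09 relative to the median gene). The libraries labelled sgOGDHL_2 in vehicle were the highest, at 1.08, 1.08 and 1.02 TPM, 2.46-fold above sgAAVS vehicle (log2 change 0.53, or 0.34 relative to the median gene), and no test is given because these libraries alone brought RB1 over the filter. In sgOGDHL_2 enzalutamide RB1 was at 0.607, 0.522 and 0.602 TPM (log2 change −0.39 with the drug, or −0.09 relative to the median gene and −0.05 after quantile normalization), also without a test. After median-of-ratios scaling RB1 was still lower with the drug in sgOGDHL_2 cells and still higher with it in sgOGDHL_1 cells. In enzalutamide the 3 groups overlapped, with log2 changes against sgAAVS of −0.06 for sgOGDHL_1 (limma adjusted p = 0.62) and −0.03 for sgOGDHL_2 (limma adjusted p = 0.90).

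Of 15 tested genes in a list of RB1, its relatives and the partners of the G1 kinases, 2 rose with enzalutamide in sgAAVS cells, RB1 itself and CDKN2B, and 1 fell. After median-of-ratios scaling 6 were higher, RB1 among them, and 4 lower. CDKN2B, the kinase inhibitor p15, rose from 0.29 ± 0.057 to 1.58 ± 0.25 TPM (log2 change 1.00, limma adjusted p = 1.5e-08). CDKN1B, the inhibitor p27, fell from 6.93 ± 0.24 to 5.4 ± 0.77 TPM (log2 change −0.32, limma adjusted p = 0.039). In the libraries labelled sgOGDHL_2 in vehicle, where RB1 was highest, CDKN1A, the inhibitor p21, picked after its values were seen, was at 973 ± 110 TPM against 21.4 ± 0.56 in sgAAVS vehicle (log2 change 5.43, limma adjusted p = 1.2e-13).

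The list of E2F factors, some of which RB1 restrains, and E2F target genes was tested in full (23 genes). With enzalutamide in sgAAVS cells 3 fell, CCNA2 or cyclin A2 from 31.2 ± 0.91 to 18.7 ± 2.8 TPM (log2 change −0.72, limma adjusted p = 2.1e-04), CDC25A from 7.05 ± 0.19 to 4.87 ± 0.77 TPM (−0.46, limma adjusted p = 0.029) and E2F7 from 2.03 ± 0.069 to 1.35 ± 0.28 TPM (−0.38, limma adjusted p = 0.013). The other 20 did not pass the test, and the median change was −0.25 against −0.05 for all tested genes. Median-of-ratios scaling called 17 lower and 1 higher with a median of −0.22, and a fit of those 6 libraries alone called 8. In enzalutamide 3 of the 23 were higher with sgOGDHL_1 than with sgAAVS, with a median of 0.16 against −0.07 for all tested genes, and CCNA2 was at 27.6 ± 1.3 TPM (log2 change 0.55, limma adjusted p = 0.007). With sgOGDHL_2 limma called 0 of the 23, with 9 lower at an unadjusted p under 0.05, and the median was −0.31. Median-of-ratios scaling called 18 higher and 3 lower with sgOGDHL_1, and 15 lower with sgOGDHL_2.

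In vehicle the E2F list was lower in the libraries labelled sgOGDHL_2, where 16 were below sgAAVS and 4 above, with a median of −1.0 against 0.18 for all tested genes, of which 18% were called lower and 41% higher. CCNA2 was at 6.87 ± 0.07 TPM there (log2 change −2.03, limma adjusted p = 7.8e-11). The same libraries had the highest RB1 and the lowest EZH2, and whether these levels are related was not tested.

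MYCN (chr2:15940564-15947007, plus strand) was at or near 0 in all 18 libraries and was not tested. It was listed at 0 in all 9 libraries of sgAAVS vehicle, sgOGDHL_1 vehicle and sgOGDHL_1 enzalutamide. The libraries labelled sgOGDHL_2 in vehicle had 0.0207, 0.00717 and 0.0173 TPM, sgAAVS enzalutamide 0.0263, 0 and 0.00666 TPM, and sgOGDHL_2 enzalutamide 0.0111, 0.00478 and 0 TPM. Its relative MYC was by contrast at 167 ± 3.9 TPM in sgAAVS vehicle and 145 ± 23 TPM in sgAAVS enzalutamide (log2 change −0.21, limma adjusted p = 0.47). After median-of-ratios scaling the MYC change was −0.19 and was called (limma adjusted p = 0.0022), with 52.7% of all tested genes. Of 11 tested genes of the MYC and MAX network 1 rose and 3 fell with enzalutamide in sgAAVS cells, and 2 and 6 after median-of-ratios scaling. MYCL fell from 5.33 ± 0.25 to 2.24 ± 0.34 TPM (log2 change −0.97, limma adjusted p = 9.9e-05) and AURKA, the kinase that stabilises N-MYC protein, from 12.9 ± 0.24 to 8.21 ± 1.1 TPM (−0.60, limma adjusted p = 0.005). MXI1, a repressor that competes with MYC for MAX, rose from 2.89 ± 0.1 to 3.97 ± 0.62 TPM (0.35, limma adjusted p = 0.025).

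Neuroendocrine lineage factors were mostly under the filter, as SOX2 and MYCN were: 4 of the 12 with a row were tested. NEUROD1 and FOXA2 reached means of at most 0.00509 and 0.00949 TPM. Of 10 neuroendocrine markers, ENO2, a glycolytic enzyme of neurons, was the only one to reach 1 TPM; it rose from 5.83 ± 0.63 to 30.6 ± 3.7 TPM with enzalutamide in sgAAVS cells (log2 change 2.21, limma adjusted p = 1.8e-07), while CHGA means were at or below 0.0189 TPM.

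Of 14 other tested tumour suppressors and plasticity genes, 1 rose and 3 fell with enzalutamide in sgAAVS cells, and 5 and 7 after median-of-ratios scaling. SNAI2, an epithelial-mesenchymal transition factor, fell from 4.47 ± 0.15 to 0.316 ± 0.046 TPM (log2 change −2.06, limma adjusted p = 2.2e-12), and KLF5, a factor of basal and luminal progenitors, from 1.45 ± 0.087 to 0.41 ± 0.11 TPM (−0.80, limma adjusted p = 2.5e-08). CHD1, a chromatin remodeller lost in some prostate cancers, fell from 2.89 ± 0.12 to 2.26 ± 0.32 TPM (−0.26, limma adjusted p = 0.043). SNAI1 rose from 1.79 ± 0.21 to 2.77 ± 0.63 TPM (0.42, limma adjusted p = 0.048). In enzalutamide SNAI2 was higher with sgOGDHL_1 than with sgAAVS, at 0.793 ± 0.059 TPM (log2 change 0.45, limma adjusted p = 0.0017).

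**Figure D3:**
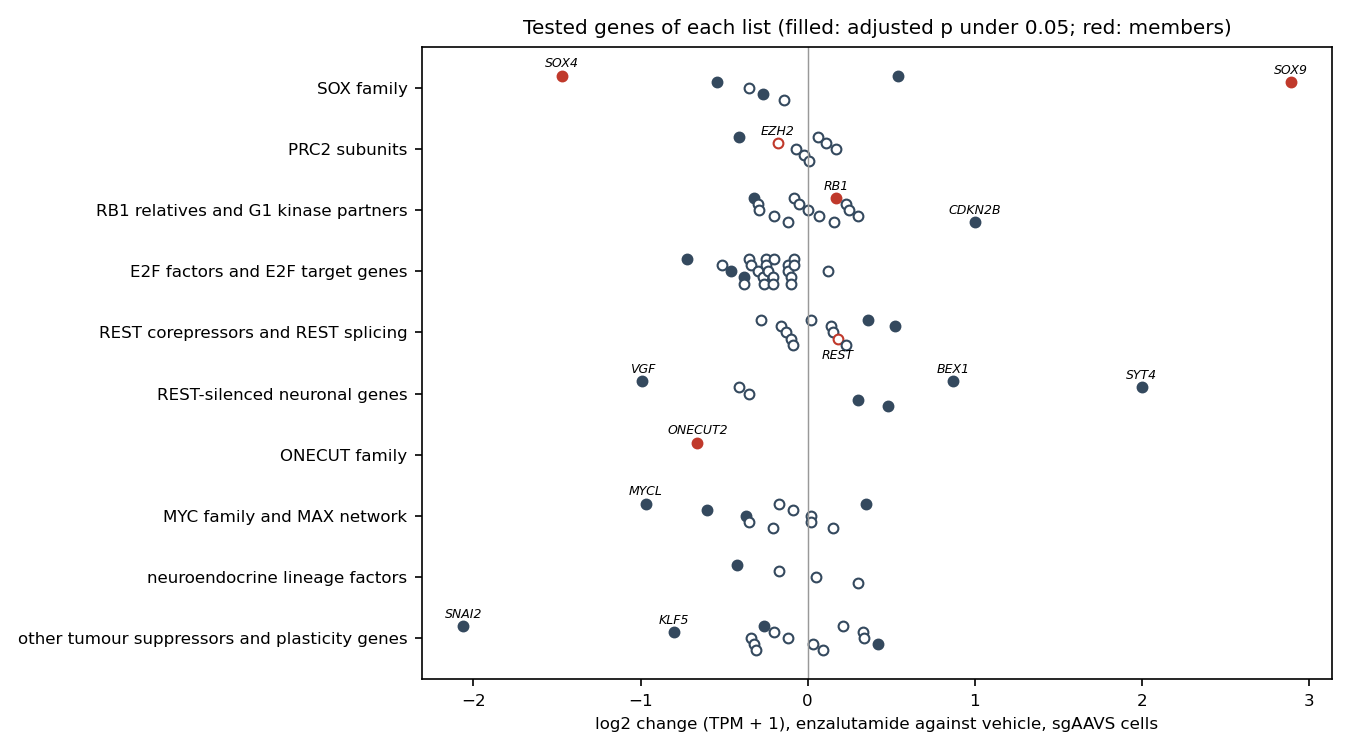
Log2 change of TPM + 1 (horizontal axis) with enzalutamide in sgAAVS cells for every tested gene of the 10 lists drawn (rows), which leave out the cell type marker lists, with the members in red. Filled points were called at a limma adjusted p under 0.05; among the genes drawn SOX9 at 2.89 lies farthest to the right and SNAI2 at −2.06 farthest to the left, and most points of the other lists lie within 1 of 0.

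In vehicle, 4 members beside RB1 were higher in the libraries labelled sgOGDHL_2 than in sgAAVS, and 3 were lower with sgOGDHL_1, the latter by −0.13 to 0.07 relative to the median gene. With RB1 set aside, the other 5 tested members were called in the libraries labelled sgOGDHL_2, SOX9, SOX4, ONECUT2 and REST higher and EZH2 lower, but 59% of all tested genes were called there, 41% higher and 18% lower. Median-of-ratios scaling called 5 members, RB1 included, and 77.8% of all tested genes in that comparison. REST, at a log2 change of 0.42 (limma adjusted p = 0.0066), was not called after median-of-ratios scaling (0.11, limma adjusted p = 0.18). In sgOGDHL_1 vehicle 3 members were called lower, SOX9, SOX4 and EZH2, where 57.8% of all tested genes were called, 0.306% higher and 57.5% lower. The 3 became 0 when sgAAVS vehicle replicate 1 or 3, or sgOGDHL_1 vehicle replicate 1 or 2, was left out. They became 1 without sgAAVS vehicle replicate 2 and 5 without sgOGDHL_1 vehicle replicate 3. In the order named, these fits called 8, 14, 14, 10, 3829 and 11245 of the 13416 genes, so the counts of members moved with those of all genes. SOX9 had a log2 change of −0.45 (limma adjusted p = 0.018, −0.13 relative to the median gene) and EZH2 of −0.25 (limma adjusted p = 0.028, 0.07 relative to the median gene). After median-of-ratios scaling, which called 43.1% of all tested genes here, none of these 3 was called, RB1 was called higher (0.11, limma adjusted p = 0.023), and SOX4 and EZH2 lay above sgAAVS at 0.02 and 0.08. Replicate 3 of sgOGDHL_1 vehicle, with 57.2% of its TPM in mitochondrially encoded genes, lay closest to sgAAVS vehicle for SOX4, SOX9, ONECUT2, EZH2 and REST. After removal of the mitochondrially encoded genes the changes of SOX4, SOX9 and EZH2 were 0.04, −0.03 and 0.12, and none was called.

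**Figure D4:**
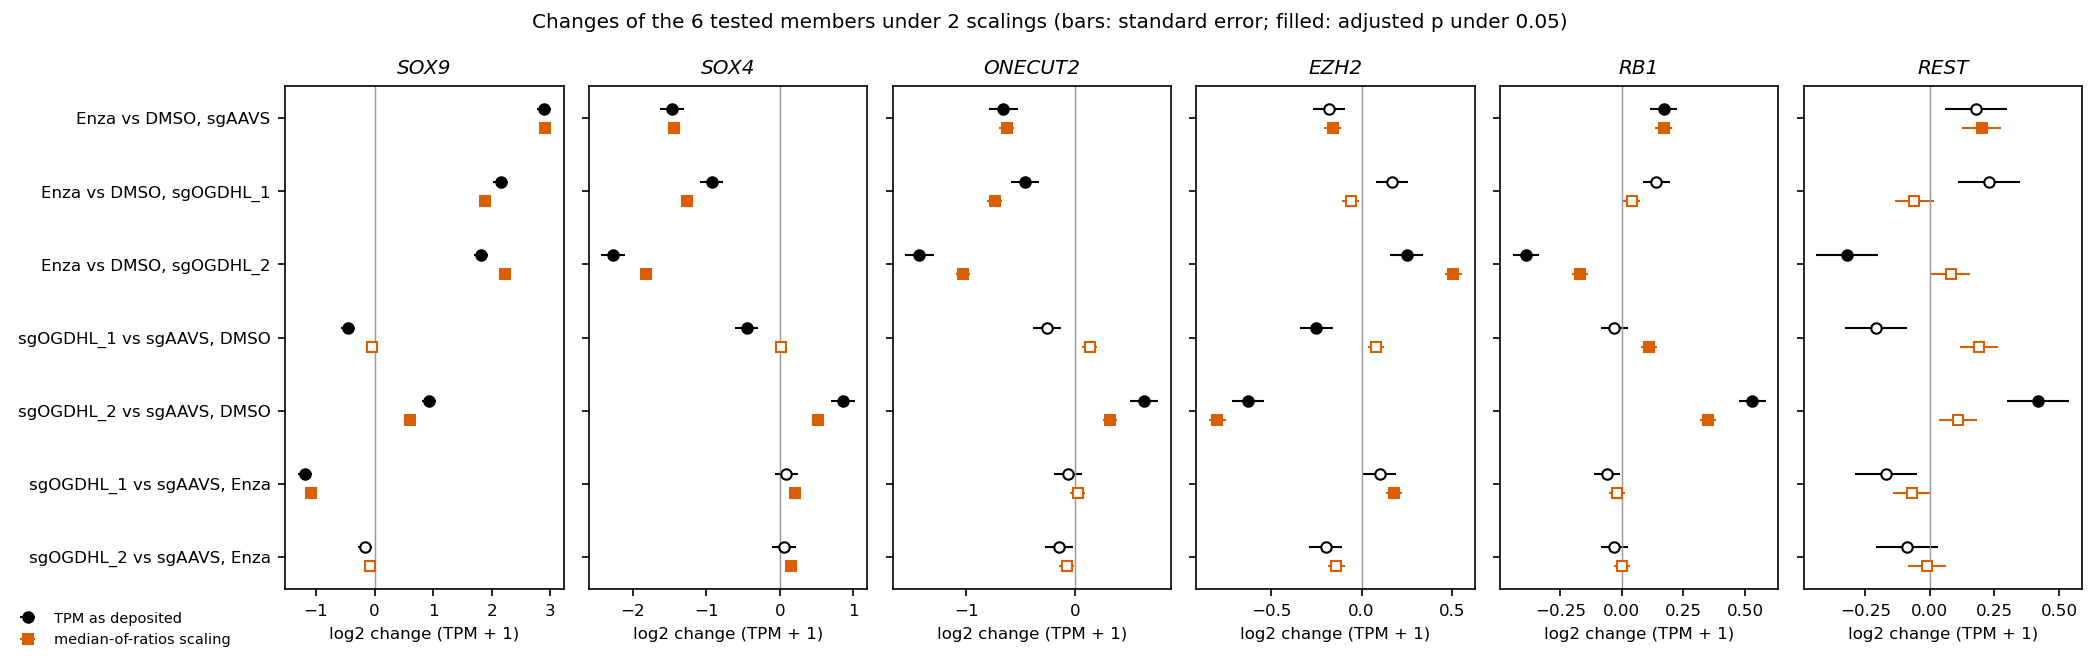
Log2 change of TPM + 1 (horizontal axes, different for each gene) of the 6 tested members in 7 comparisons, from TPM as deposited (circles) and after median-of-ratios scaling (squares). Bars are standard errors and filled symbols were called at a limma adjusted p under 0.05. For RB1 the filling is not to be read as a test in comparisons that use the libraries labelled sgOGDHL_2 in vehicle. Those libraries alone brought RB1 over the filter. The SOX9, SOX4 and ONECUT2 changes with enzalutamide keep their sign in both scalings. For sgOGDHL_1 against sgAAVS in vehicle the circles lie below 0 and the squares near or above it.

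The tested genes whose levels over the 18 libraries were most like each member's are given by Pearson's r of log2(TPM + 1), as a description only, since the libraries fall into 6 groups and share their scaling. For SOX9 they were NRP1 (0.992), BROX (0.991) and CALD1 (0.989). For SOX4 they included DHRS7 (0.996) and PPFIBP2 (0.996), and for ONECUT2 they were CERS6 (0.989), PPM1A (0.989) and KDM7A (0.987). EZH2 was closest to IARS1 (0.989), TCOF1 (0.988) and DNAJC10 (0.988). RB1 was closest to ZNF658 (0.993), ZNF441 (0.993) and ZNF28 (0.992), all zinc finger genes, and REST to ZNF24 (0.99), CEP170 (0.984) and ZNF197 (0.983).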

How the data were processed

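RNA was taken from 16D cells of the 6 groups, and strand-marked mRNA libraries were read as paired ends of 50 bases, per the labels' protocols. Alignment tool and build were STAR and GRCh38, per the submitters' processing notes, while the tool and gene models used for counting are not stated there. The authors deposited TPM for 37347 rows in 18 libraries, per the file headers and values. TPM has a fixed sum, so abundant transcripts that change shift all other genes, and no depth or counting interval can be given.

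The 10345 unnamed rows, which held 4.24% to 9.68% of a library's TPM, and 69 rows of 3 symbols with more than 4 rows were left out, and 32 symbols with up to 4 rows were summed. limma 3.58.1 in R 4.3.3, with a trended prior, was fitted to log2(TPM + 1), a pseudocount of 1, in all 18 libraries with 6 group means (12 residual degrees of freedom), two-sided, with Benjamini-Hochberg adjustment over 13416 genes. The procedure was tested on simulated data. Each gene was called at an adjusted p under 0.05. Interactions compare the enzalutamide change between guides.

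The alternatives tried were a pseudocount of 0.1 or 5, a filter of 5 TPM or none, quantile normalization, median-of-ratios scaling, leaving out 37 mitochondrially encoded genes, each comparison's own libraries, a replicate block and leaving out each library. The members, gene lists and tests were chosen with earlier results of these data known. Beside the members and OGDHL, the genes named were those under the filter and, from each list, up to 3 rising and 3 falling genes of largest change called with enzalutamide in sgAAVS cells. Exceptions to this rule were SOX12, SUZ12, EED, EZH1, MYC, CDKN1A, CELSR3, GRIN1, CD68 and LYZ, which were picked with their values in view. The lists held 193 genes, of which 4 were not analysed here. A few genes that the naming rule selects are not reported here.

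Deviations of libraries with the same replicate number correlated at 0.254, 0.109 and 0.204 between sgAAVS and sgOGDHL_1 in enzalutamide, so these numbers were taken as pairs, from the data alone; no other pair of groups passed 0.1 at every number. Positions and transcripts came from GENCODE 29 and promoter windows from RefSeq (GRCh38.p14), which held no window for SOX9; those of SOX4 and MYCN lie in exons of GENCODE 29 and are not shown. Tables and figures used Python 3.11.15, numpy 2.4.6, pandas 2.3.3 and matplotlib 3.10.9.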

Additional observations from a re-analysis of the deposited data

Results flagged for a closer look

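The change of 5 members with enzalutamide differed between guides by the limma test of the interaction. That test called 6.95% of all tested genes for sgOGDHL_1 and 43.6% for sgOGDHL_2, or 34% and 66.4% after median-of-ratios scaling. RB1 is given as a description only, since the libraries labelled sgOGDHL_2 in vehicle alone brought it over the filter. With sgOGDHL_1 against sgAAVS, SOX9 rose less, by −0.74 on the log2 scale (limma adjusted p = 0.017). The corresponding means were 7.25 and 60.8 TPM in sgAAVS vehicle and enzalutamide and 5.06 and 25.9 TPM with sgOGDHL_1. With sgOGDHL_2 the SOX9 difference was −1.08, that of SOX4 −0.80, of ONECUT2 −0.77, of RB1 −0.56, of REST −0.50 and of EZH2 0.43, with limma adjusted p from 7.2e-05 to 0.024 for the 5 beside RB1. Relative to the median gene the sgOGDHL_2 values were −0.83 for SOX9, −0.55 for SOX4, −0.52 for ONECUT2, −0.30 for RB1, −0.25 for REST and 0.68 for EZH2. The REST difference was not called after median-of-ratios scaling (−0.12, limma adjusted p = 0.32) or quantile normalization (−0.17, 0.18). All 6 rest on the vehicle libraries labelled sgOGDHL_2, in which OGDHL was not lower than in sgAAVS and 764 to 851 named genes were listed at 0. CD68 made up most of a leukocyte marker sum of 11.4 to 12 TPM there, against 0.444 to 0.861 TPM in the other libraries, with PTPRC at most 0.0012 TPM, and the part of this in the 6 differences was not tested.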

How the results depend on the processing

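With enzalutamide in sgAAVS cells, 4 members were called and 3 to 4 with each library left out. These ranges were 2 to 6 in sgOGDHL_1 cells and 4 to 5 in sgOGDHL_2 cells. For sgOGDHL_1 against sgAAVS they were 0 to 5 in vehicle and 1 to 1 in enzalutamide, and for sgOGDHL_2 6 to 6 and 0 to 0. For the interactions they were 0 to 3 and 5 to 6. Of the 13416 genes, these fits called 2017 to 2853 with enzalutamide in sgAAVS cells and 6949 to 7842 in sgOGDHL_2 cells. They called 6997 to 7583 for sgOGDHL_2 in vehicle, 77 to 192 in enzalutamide and 5017 to 6070 for its interaction. For sgOGDHL_1 in enzalutamide they called 561 to 980. RB1 was 1 of the 6 for sgOGDHL_2 in vehicle, though those libraries alone brought it over the filter. For sgOGDHL_1, the counts of 6 with enzalutamide, 5 in vehicle and 3 in the interaction came without sgOGDHL_1 vehicle replicate 3. Those fits called 9931, 11245 and 8784 of the 13416 genes, against 4007, 7757 and 932 with all libraries. Each comparison's own libraries gave 1 for enzalutamide in sgOGDHL_1 cells, 0 for its interaction and 0 for sgOGDHL_1 in vehicle, where fewer samples were fitted. Of all tested genes, these fits called 506, 346 and 0. A fit with sgOGDHL_1 vehicle replicate 3 alone in its group was chosen after seeing the data, and no count of members is given for it.

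Scaling moved counts of members as well; the cause was not tested. For the interaction of sgOGDHL_1, median-of-ratios scaling gave 3, and removal of mitochondrial genes and quantile normalization gave 2 each. In that order they called 4568, 3814 and 4241 of all tested genes there, against 932 on TPM as deposited. For sgOGDHL_1 in enzalutamide all 3 gave 3, with 4841, 4261 and 4658 of all tested genes called in the same order, against 948. For sgOGDHL_2 in enzalutamide all 3 gave 1, with 2324, 1892 and 2239 called, against 168. For sgOGDHL_1 in vehicle median-of-ratios scaling gave 1, with 5784 called, against 7757. In the last comparison 3 called lower became 1 higher. The same scaling gave 2 higher and 3 lower, and quantile normalization 2 and 2, for enzalutamide in sgOGDHL_2 cells, against 2 and 4. Those counts include RB1 where it was called. It gave 1 higher and 2 lower for the interaction of sgOGDHL_1 against 0 and 1, and 2 and 1 for sgOGDHL_1 in enzalutamide against 0 and 1. It called 7071 of all genes with enzalutamide in sgAAVS cells against 2796.

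The replicate block changed no count of members called, in all 18 libraries or in the paired sgAAVS and sgOGDHL_1 enzalutamide libraries, where 1 was called with it. Without the 3 sgOGDHL_2 vehicle libraries, also chosen after seeing the data, the counts were again 4 and 3 with enzalutamide in sgAAVS and sgOGDHL_1 cells, 3 and 1 for sgOGDHL_1 in vehicle and enzalutamide, 0 for sgOGDHL_2 in enzalutamide and 1 for the interaction of sgOGDHL_1. In the order named, these fits called 2596, 3290, 6999, 876, 152 and 617 of the 13416 genes. They kept the filter set on all 18 libraries, so RB1 stayed among the tested genes only through the libraries left out. The unchanged counts are therefore no separate check of RB1.

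Over single members, 795 alternative values stayed on the same side of the threshold with the same sign, 52 lost their call, 28 gained one and 49 changed sign. The sign changes are given in the order median-of-ratios scaling, mitochondrial genes removed and quantile normalization. For sgOGDHL_1 against sgAAVS in vehicle they were 0.02, 0.04 and 0.03 for SOX4, 0.08, 0.12 and 0.08 for EZH2, 0.13, 0.17 and 0.15 for ONECUT2, 0.11, 0.19 and 0.13 for RB1 and 0.19, 0.22 and 0.21 for REST. For enzalutamide in sgOGDHL_1 cells they were −0.06, −0.09 and −0.06 for EZH2 and −0.06, −0.07 and −0.06 for REST. For the interaction of sgOGDHL_1 they were −0.11, −0.15 and −0.14 for ONECUT2 and −0.25, −0.31 and −0.31 for REST. For sgOGDHL_1 in enzalutamide ONECUT2 was 0.02 in all 3. For enzalutamide in sgOGDHL_2 cells REST was 0.08 in the first and the last. For sgOGDHL_2 in enzalutamide RB1 was 0.00 and 0.02 in the first and second, and REST 0.02 in the second. With sgOGDHL_1 vehicle replicate 3 alone, EZH2 with enzalutamide was −0.03, the interactions of ONECUT2 and REST were −0.08 and −0.17, and in vehicle ONECUT2 was 0.01, RB1 0.03 and REST 0.00. With each library left out, in enzalutamide ONECUT2 with sgOGDHL_1 ran from −0.19 to 0.02, and with sgOGDHL_2 REST ran from −0.21 to 0.00 and SOX4 from −0.02 to 0.16. Without sgAAVS enzalutamide replicate 1 the interaction of RB1 was 0.01 and RB1 with sgOGDHL_2 was 0.00, and without replicate 2 the interaction of REST was −0.08. Without sgOGDHL_1 vehicle replicate 3 the interaction of RB1 was 0.00, and without its replicate 1 that of REST was −0.02. None of these sign changes was called by limma except those of RB1 and REST under the 3 scalings: RB1 in sgOGDHL_1 vehicle passed in all 3, REST there without mitochondrial genes and after quantile normalization, and the interaction of REST after quantile normalization.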
